A study of Mus musculus with 2 samples.

Results

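The FGF signalling genes described here are the fibroblast growth factors named Fgf and a number, their receptors Fgfr1 to Fgfr4, the binding proteins Fgfbp1 and Fgfbp3, and the pathway's inhibitors and targets Spry1 to Spry4, Spred1 to Spred3, Dusp6, Etv4 and Etv5. They were chosen by annotated gene symbol, with earlier results of these data known. Probe sets (groups of array probes that read 1 transcript) of several genes were left out. The rule found 38 genes, read by 84 of the 34945 single-gene probe sets, out of 18193 genes in all. RNA of E18.5 (late fetal) palate was measured in mice of the BALB/c background, with 1 array for wild type and 1 array for fetuses labelled as null for Myf5 and for Myod (gene symbol Myod1), the factors that commit cells to skeletal muscle. Each array received label made from 6 µg of total RNA, and no source states if fetuses were pooled or how either null allele was built. The series asks what part skeletal muscle plays in palate development. With 1 array a genotype there is no replicate check and no test, so each value below compares these 2 arrays and carries no p-value.

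Secreted FGFs bind receptor tyrosine kinases together with heparan sulfate on the cell surface, and the receptors signal through RAS and ERK kinases to transcription factors of the ETS family. Among the genes that the pathway switches on are its own brakes, the Sprouty and Spred proteins, which act on the RAS and RAF step, and the phosphatase Dusp6, which inactivates ERK. In the palate, Fgf10 from the mesenchyme and its epithelial receptor, a splice form of Fgfr2, are needed for the shelves to grow and close. A separate branch of the family, Fgf11 to Fgf14, is not secreted and acts inside cells, mainly neurons, on voltage-gated sodium channels.

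The promoters of 4 of these genes are shown first, from the RefSeq promoter table (build GRCm38.p6). Their transcripts lay furthest apart between the arrays among the measured members for which an entry was used. Entries on a chromosome were left out for members, so a gene without a promoter here may still have an entry in that table. Spry4 and Fgfr1 had no entry used, although their transcripts lay further apart than those of Fgf9 and Spry2. Fgf13 (chrX:59585573-59585822, minus strand), Fgf12 (chr16:28753244-28753493, minus strand) and Spry2 (chr14:105896820-105897069, minus strand) had higher signals on the array labelled double null, and Fgf9 (chr14:58072436-58072685, plus strand) had lower signals. Each run is the 250 bases before the annotated start, read 5′ to 3′ along the gene, and for Fgf13 and Fgf12, which have 4 starts each in the table, the first one listed. Capitals mark CANNTG, the E-box that basic helix-loop-helix factors such as Myf5 and MyoD bind.
Fgf13: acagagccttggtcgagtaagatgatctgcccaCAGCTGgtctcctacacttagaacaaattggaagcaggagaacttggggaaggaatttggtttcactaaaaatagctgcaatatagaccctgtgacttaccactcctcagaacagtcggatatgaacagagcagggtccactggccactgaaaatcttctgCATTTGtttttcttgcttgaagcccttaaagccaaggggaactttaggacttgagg
Fgf12: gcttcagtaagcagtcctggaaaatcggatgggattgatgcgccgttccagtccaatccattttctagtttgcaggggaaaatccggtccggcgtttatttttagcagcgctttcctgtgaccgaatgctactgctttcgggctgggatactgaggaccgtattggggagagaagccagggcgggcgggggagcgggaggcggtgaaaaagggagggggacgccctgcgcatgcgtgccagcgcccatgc
Fgf9: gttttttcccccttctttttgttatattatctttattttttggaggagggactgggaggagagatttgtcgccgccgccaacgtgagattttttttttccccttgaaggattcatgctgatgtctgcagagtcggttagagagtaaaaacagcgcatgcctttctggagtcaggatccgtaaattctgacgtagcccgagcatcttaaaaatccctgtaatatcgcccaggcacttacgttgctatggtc
Spry2: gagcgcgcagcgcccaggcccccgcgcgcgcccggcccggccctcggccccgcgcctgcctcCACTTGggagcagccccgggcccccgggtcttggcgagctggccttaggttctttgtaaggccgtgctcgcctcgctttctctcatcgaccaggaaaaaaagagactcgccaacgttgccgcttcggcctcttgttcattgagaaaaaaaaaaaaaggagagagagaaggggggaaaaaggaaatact

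The printed Fgf13 window held 2 E-boxes, that of Spry2 held 1, and those of Fgf12 and Fgf9 held 0. The other starts differed: the 3 further Fgf13 windows held 0, and of the 3 further Fgf12 windows the last 2 held 1 each, so the count depends on the start chosen. Windows were used for 28 of the 38 genes, 36 in all, and both strands were searched. The chromosome left out for members was kept in the windows of all genes, so the 2 sets compared below were not filtered alike. CANNTG was found in 22 of the 36 windows (61.1%), against 66.2% of all 32851 windows of the same length. CAGCTG, an E-box that the myogenic factors favour and that is also counted under CANNTG, was in 6 windows (16.7%, against 13% of all), those of Fgf13, Fgf11, Fgf14, Fgf22, Fgfr3 and Etv5. CCGGAA, a core of ETS sites, was in 3 windows (8.33%, against 12.0% of all), those of Fgf5, Fgfr4 and the last listed start of Fgf12. These are matches of letters and not measured binding.

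Signals are MAS5 intensities scaled to a common level, and ratios are log2 differences, the array labelled double null minus wild type. Signals under a floor of 287 (the 40th percentile of all signals) were set to it, so that a fold against a floored array is a lower bound and is written "at least". A gene was taken at its brightest probe set and counted as measured where the brighter array reached 658, the 60th percentile. By this rule 18 of the 38 genes were measured, 10 were above the floor on an array without reaching that level, and 10 were under the floor on both. The filter acts on the brighter array, so the 18 are not a sample of all members. Levels of different genes come from different probes and are not ranked here. The scaling sets where 0 lies: the median of all measured genes was 0.07, and it was 0.40 when the arrays were matched on the median signal of reference genes (called reference scaling below), the largest shift among 4 other scalings.

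**Figure D1:**
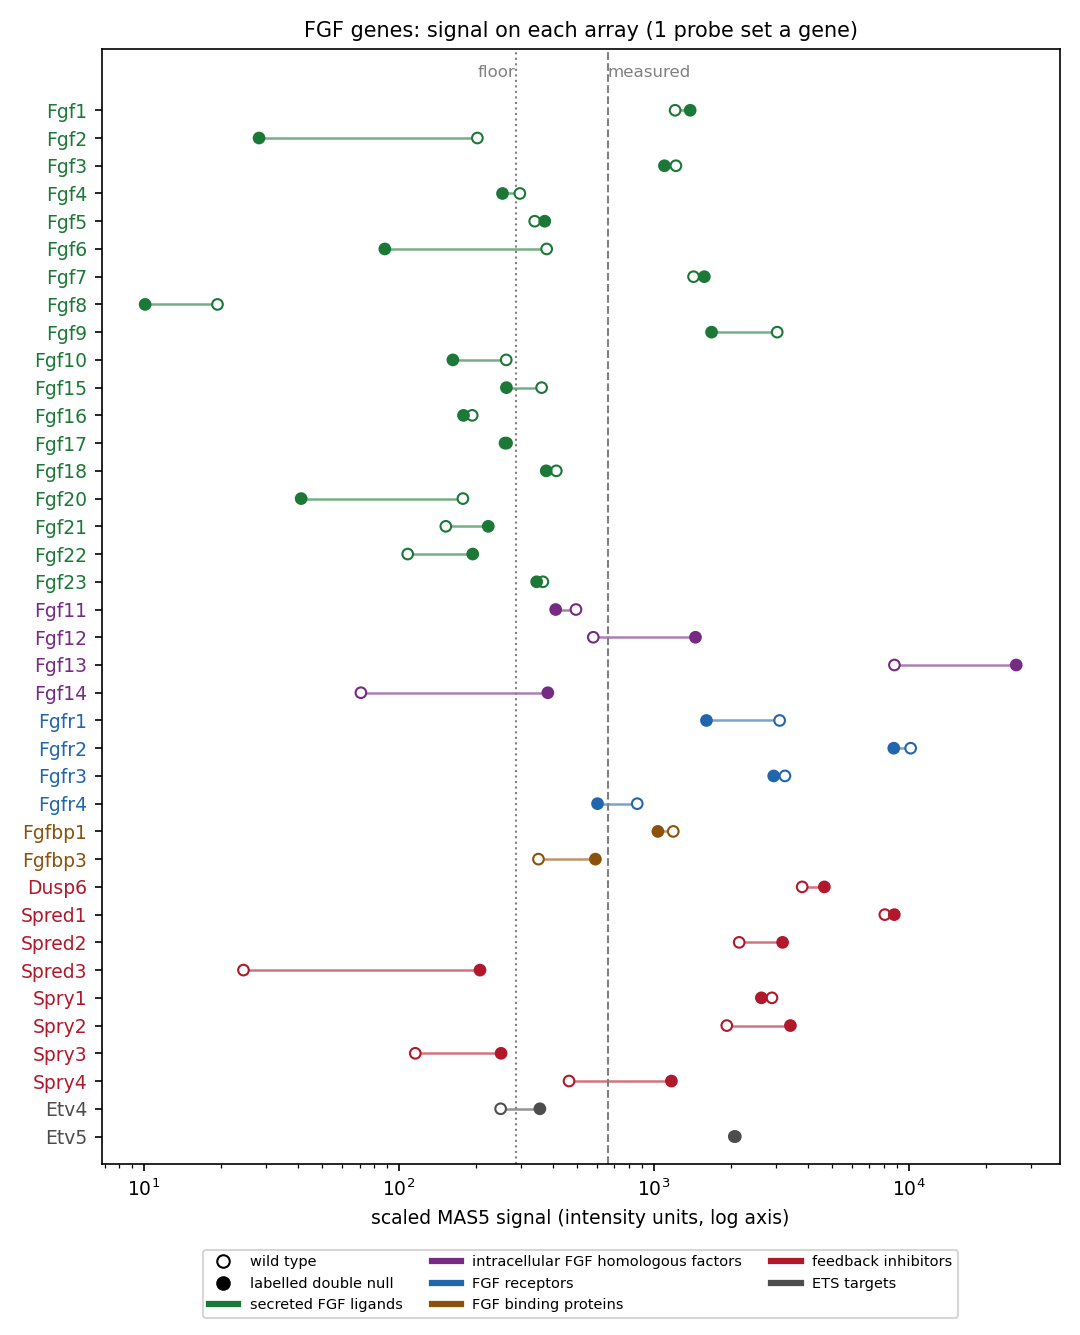
Scaled MAS5 signal (horizontal log axis, intensity units) of the representative probe set of each of the 38 genes on the wild-type array (open circles) and the array labelled double null (filled circles), coloured by role, with the floor of 287 dotted and the level of 658 for a measured gene dashed. Fgf13, Fgf12 and Spry4 have the widest gaps among the 18 measured genes, all with the filled circle to the right, and 10 genes lie left of the floor on both arrays.

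The targeted genes and the tissue markers set the frame. The only Myf5 probe set read 517 in wild type and 531 on the other array, and the brighter Myod1 probe set read 1938 and 1663. No source places these probes inside or outside the deleted parts, so they check nothing about the alleles, and the second array is called the array labelled double null. All 14 skeletal muscle markers were lower there, or 13 of 14 with reference scaling. Their summed signal was 203897 in wild type and 109870 in the other, and 10 of 14 read above 1479 on both arrays, so muscle RNA was present on both. Markers of mesenchyme and of basal epithelium, the defining tissues of the palate, were mostly bright on both. Examples are Col1a2 (123685 and 147333) and Krt5 (38392 and 25534). Of the measured ones, 8 of 9 mesenchyme and 10 of 12 epithelial markers read above 1479 on both arrays. The mesenchyme markers Osr1 (225 and 308) and Osr2 (379 and 45.6) were not measured.

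Of the 18 measured FGF genes, 3 had signals at least 2-fold above wild type, 0 were at least 2-fold lower and 15 lay within 2-fold. The background over all 11238 measured genes was 3.51% at least 2-fold higher and 4.22% at least 2-fold lower. The members' share of 16.7% higher stands beside these values, with 3 genes behind the former and no test of either. Of these 3, Fgf12 and Spry4 read under 658 in wild type and passed the filter only through the array where they were high, so the share supports nothing by itself. With the filter at the 75th percentile, 1 of 12 measured members (Fgf13) was past 2-fold. Of all genes past 2-fold, 54.6% were lower, but 16.7% with reference scaling, 65.0% as deposited and 72.2% with scaling on the median ratio of reference genes, so the balance of directions depends on the scaling. The 3 members were Fgf13, Spry4 and Fgf12. The median log2 ratio was 0.06 over the 18 genes, with 9 above 0 and 9 below (15 and 3 with reference scaling), and 0.07 over all measured genes.

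The background depends on brightness. Among measured genes whose brighter array was under 1479, the 75th percentile, 4.73% were at least 2-fold higher and 6.96% at least 2-fold lower. Among brighter genes these shares were 2.99% and 3.07%. Fgf12 and Spry4 belong to the 6 dimmer members and Fgf13 to the 12 brighter ones. The central 95% of all measured genes ran from -1.25 to 1.11 in log2 ratio, and Fgf13, Spry4 and Fgf12 lay above it while no member lay below it.

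**Figure D2:**
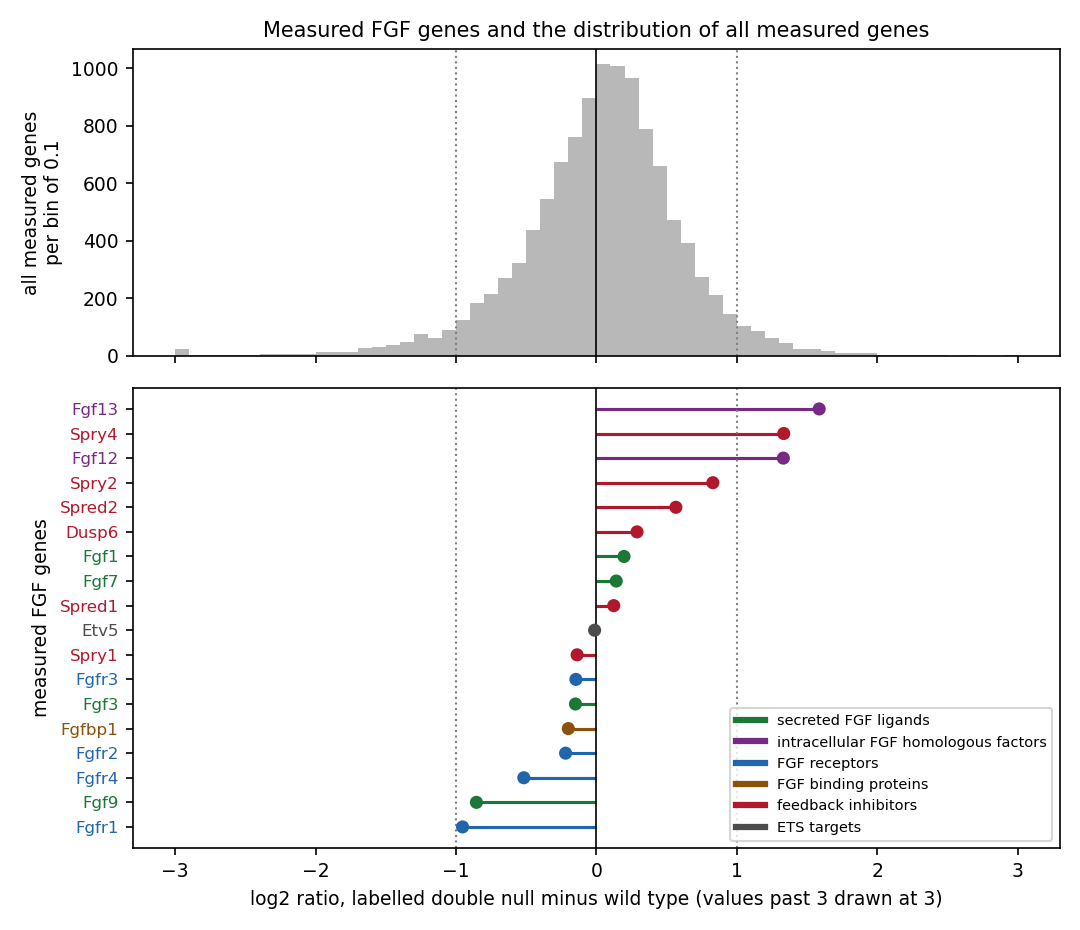
Upper panel, number of all 11238 measured genes (vertical axis) per bin of log2 ratio, labelled double null minus wild type (horizontal axis); lower panel, the same ratio for each of the 18 measured FGF genes, coloured by role, with dotted lines at 2-fold. The members run from -0.95 (Fgfr1) to 1.59 (Fgf13), and 3 lie right of the upper dotted line.

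Other probe sets of the same gene give a second reading of a ratio. Over all genes, the ratios of measured probe sets of a gene had a pooled SD of 0.51 (10190 probe sets of 4030 genes), which holds probe and isoform differences but none between animals. Of the members, 26 probe sets were measured, of which 3 were at least 2-fold higher and 1 at least 2-fold lower, against 3.68% and 4.52% of all 17407 measured single-gene probe sets. In 6 genes more than 1 probe set was measured. Fgf9, Fgfr1 and Fgfr2 were below 0 in every measured probe set (Fgfr1 and Fgfr2 not with reference scaling), Spred2 was above 0 in every one, and Fgf1 and Spred1 had both signs. The second measured probe sets of Fgf9, Fgfr2 and Spred2 reached 658 only on the array where they were high. They passed the filter only through that array and support nothing by themselves.

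**Figure D3:**
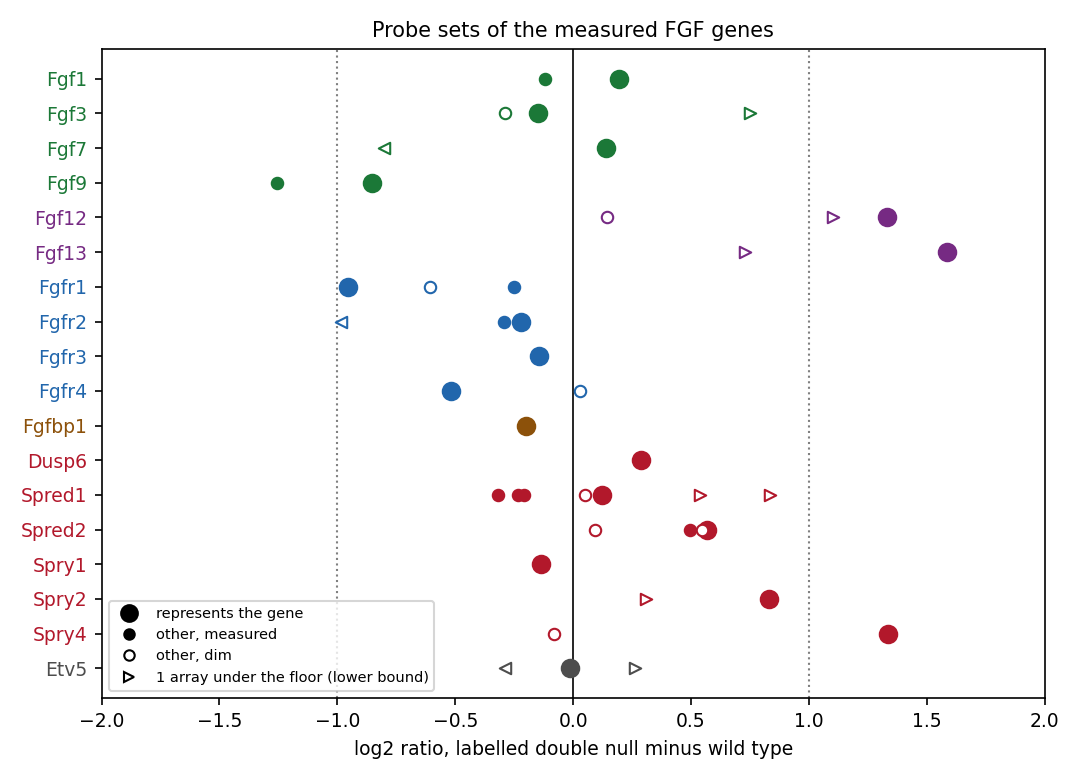
Log2 ratio, labelled double null minus wild type (horizontal axis), of every probe set above the floor on an array for the 18 measured FGF genes; large circles represent the gene, small filled circles are other measured probe sets, open symbols are dim ones, and triangles are lower bounds where an array was under the floor. Probe sets of Fgf9, Fgfr1 and Fgfr2 (these receptors not with reference scaling), Fgf12, Fgf13, Spry2 and Spred2 (not with scaling on the median ratio of reference genes) fall on a single side of 0, and those of Spry4, Fgf1, Fgf3, Fgf7, Fgfr4, Spred1 and Etv5 on both. The side of a triangle follows from which array was above the floor.

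The intracellular factors Fgf13 and Fgf12 differed in the same direction under all 4 other scalings and were past 2-fold in each. Fgf13, which binds sodium channels and microtubules in neurons, read 8768 in wild type and 26333 in the other, a 3-fold higher signal (log2 ratio 1.59). Only 0.498% of measured genes had a ratio as high. Its second probe set was dim, with 186 and 475, and gave at least 1.66-fold higher.

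Fgf12, a regulator of sodium channel inactivation, read 578 and 1454, or 2.52-fold higher (log2 ratio 1.33). A second Fgf12 probe set read 285 and 615, at least 2.14-fold higher, and the last differed little (308 and 341, log2 ratio 0.15). Both genes read higher in all their probe sets, by amounts that differed between probe sets. The second probe sets of Fgf13 and Fgf12 were above the floor only on the array where they were high. Their sign was set by that selection, so they support nothing by themselves. The last Fgf12 ratio lies within the SD of 0.51 among probe sets of a gene. The other 2 genes of this branch were not measured. Fgf14, which acts on sodium channels at the start of the axon, read 70.9 and 383, at least 1.34-fold higher in its brightest probe set, and its other 3 probe sets were under the floor on both arrays. Fgf11 read 494 and 411, a log2 ratio of -0.26 against the direction of the others.

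Neuronal transcripts were also higher. All 14 neuron markers were measured and, by representative probe set, all 14 were above 0 (13 with 3 of the other scalings). Their median log2 ratio was 0.73, and 5 were at least 2-fold higher. Their summed signal was 69923 in wild type and 142507 with the label double null. The furthest were Elavl4, an RNA-binding protein of neurons (2638 and 8867), and Snap25 of the synaptic release machinery (1881 and 5529), and no marker of the list was under the floor. Other measured probe sets were below 0 for Syp (920 and 373, -1.30), Prph (694 and 349, -0.99) and Elavl3 (921 and 830, -0.15). Those of Nefl, Elavl4, Snap25 and Stmn2 were above 0. More cells of a type and more RNA per cell cannot be told apart in bulk tissue, and the part of neuronal content in the Fgf12 and Fgf13 values was not tested. Fgf13 also lies on the X chromosome, and the arrays differed in sex-linked RNA. Eif2s3y of the Y chromosome read 10.8 and 2794, and Xist of the inactive X read 33812.5 and 16947. The array labelled double null thus held both Y-linked and Xist RNA, and the cause was not tested. The part of the sex-linked difference in the Fgf13 value was not tested.

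The 4 receptors were all measured and all below 0, each by less than 2-fold, except that Fgfr2 and Fgfr3 were above 0 with reference scaling. Their median log2 ratio was -0.37. Fgfr4 passed the filter only through the array where it was high, so it supports neither this count nor this median. Relative to the median of all measured genes the receptor median was -0.44, and between -0.45 and -0.43 under the 4 other scalings. Apart from quantile normalization these scalings shift all ratios nearly alike, so that narrow range was largely fixed in advance. Fgfr1, the receptor of mesenchyme and bone-forming cells, read 3110 and 1606, or 1.94-fold lower (log2 ratio -0.95). Its other measured probe set gave a smaller difference of 1321 and 1109 (-0.25), and a dim one read 616 and 404 (-0.61). The brightest Fgfr1 probe set carries a suffix for probes shared with related transcripts, and without such probe sets the gene's value was -0.25. With the deposited scaling it was -1.03, just past 2-fold.

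Fgfr2, whose epithelial form receives Fgf7 and Fgf10, read 10153 and 8718 (log2 ratio -0.22). Its second probe set read 740 and 605 (-0.29) and the last 567 and 277, at least 1.98-fold lower. Fgfr3, the receptor that restrains cartilage growth, read 3263 and 2948 (-0.15). Both ratios lie within the SD of 0.51 seen among probe sets of a gene. Fgfr4, a receptor found in developing muscle, read 860 and 600 (-0.52) in a probe set that may cross-hybridise, and another probe set just above the floor showed almost no difference (324 and 331). Its remaining 3 probe sets were under the floor on both arrays. Fgfr2, Fgfr4 and the ligand Fgf3 had no measured probe set without a suffix (a, s or x) for probes that match several transcripts, of the same gene or of others.

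With reference scaling Fgfr2 (0.10) and Fgfr3 (0.17) lay above 0 though still under the all-gene median of 0.40. Fgfr1 (-0.64) and Fgfr4 (-0.20) lay below 0 there too, so the representative probe sets of those receptors kept 1 sign in all scalings.

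Of the 18 secreted ligands 4 were measured, 6 were dim and 8 were under the floor on both arrays. None of the 4 was past 2-fold, and their median log2 ratio was -0.0043, with 2 above 0 and 2 below. Fgf9, a ligand made in epithelium that acts on mesenchyme, was the furthest at 3042 and 1682, or 1.81-fold lower (log2 ratio -0.86). Its second probe set read 1143 and 479, or 2.39-fold lower, and the mean over both was -1.06, past 2-fold. Fgf9 was lower by either probe set, and 5.98% of measured genes had a ratio as low as its representative one.

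The other 3 measured ligands differed by less than the SD between probe sets. Fgf7, the keratinocyte growth factor made by mesenchyme, read 1429 and 1576 (0.14), while its dim second probe set read 500 and 216, at least 1.74-fold lower. Fgf1, a ligand of all the receptors, read 1210 and 1386 (0.20), with 735 and 677 (-0.12) in its other measured probe set. Fgf3, a ligand of the epithelial receptor forms, read 1219 and 1099 (-0.15, or 0.17 with reference scaling), with 645 and 529 in a second and 243 and 482 in another. For Fgf7, Fgf1 and Fgf3 the probe sets of a gene gave both signs.

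Among the dim ligands, Fgf6, a growth factor of skeletal muscle, read 379 in wild type and was under the floor on the second array (88.0), at least 1.32-fold lower. Fgf15, an FGF of the endocrine branch, read 362 and 264, at least 1.26-fold lower. Fgf18, which acts on bone and cartilage, read 414 and 378, Fgf5 341 and 373, Fgf23 367 and 347, and Fgf4 298 and 255. None of these 6 ligands reached 658 on either array. Fgf10, the ligand needed for the palate shelves, read 263 and 163, under the floor on both arrays. Fgf2, Fgf8, Fgf16, Fgf17, Fgf20, Fgf21 and Fgf22 were likewise under the floor on both in all their probe sets. For these 8 ligands no difference between the arrays was measurable at this signal.

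The binding proteins release FGFs from heparan sulfate in the matrix. Fgfbp1, the epithelial form, read 1190 and 1036, a log2 ratio of -0.20 that is within the SD between probe sets and was 0.12 with reference scaling. Fgfbp3 was not measured, with 352 and 589 (0.74), so it was brighter on the second array but under the level of 658 on both.

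Of the 8 inhibitors of the pathway 6 were measured, with 5 above 0 and 1 below (6 and 0 with reference scaling, 4 and 2 with scaling on the median ratio of reference genes). Their median log2 ratio was 0.43, which is 0.36 above that of all measured genes, and between 0.34 and 0.37 above it under the 4 other scalings. That narrow range was largely fixed in advance, since all of these scalings but quantile normalization shift all ratios nearly alike. A single gene, Spry4, was past 2-fold. Spry2, the Sprouty gene whose loss leads to cleft palate in mice, read 1929 and 3428, or 1.78-fold higher (0.83), and its dim second probe set read 264 and 356, at least 1.24-fold higher. Spred2 read 2158 and 3195, or 1.48-fold higher (0.57). Its other measured probe set gave 467 and 659 (0.50), and dimmer ones read 370 and 540 and 314 and 335. Spry2 and Spred2 were higher in every probe set above the floor on an array. An exception was the dimmest of Spred2, which was below 0 with scaling on the median ratio of reference genes. The dim Spry2 probe set was above the floor only on the array where it was high. Its sign was set by that selection, so the direction of Spry2 rests on its representative probe set. The other measured Spred2 probe set passed the filter only through the array where it was high, and supports nothing by itself.

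Spry4 was less clear. Its representative probe set read 464 and 1170, or 2.52-fold higher (1.33), but a second showed no such difference, with 505 and 477 (-0.08). The other 2 Spry4 probe sets were under the floor on both arrays. The Spry4 ratio was 0.83 with a higher floor (the 60th percentile) and 0.96 with an offset added in place of a floor, each short of 2-fold.

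Dusp6, the ERK phosphatase, read 3812 and 4657, or 1.22-fold higher (0.29) by its only probe set. Spred1 read 8042 and 8759 (0.12) in its brightest of 8 probe sets, whereas the next 3 were lower, with 2437 and 2107, 947 and 804, and 819 and 657. Its dim probe sets read 457 and 473 (0.05), 278 and 512 (at least 1.78-fold higher) and 135 and 416 (at least 1.45-fold higher), and the last was under the floor on both arrays. The mean over its measured probe sets was -0.16, so no direction is given for Spred1. Spry1 read 2901 and 2637 (-0.14), the only measured inhibitor below 0, and had 0.18 with reference scaling. Spry3 and Spred3 were under the floor on both arrays.

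The ETS factors Etv4 and Etv5 are standard readouts of FGF signalling. Etv5 read 2084 and 2065, a log2 ratio of -0.01 (0.30 with reference scaling, under the all-gene median), and its 2 dim probe sets pointed opposite ways (350 and 240, 235 and 344). Etv4 was not measured, with 250 and 357 in its brighter probe set. Among the measured inhibitors and ETS factors, by representative probe set, Spry4, Spry2, Spred2, Dusp6 and Spred1 were above 0 and Spry1 and Etv5 below.

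Other genes of the pathway were mostly within 2-fold. The same held for all measured genes, of which 3.51% were at least 2-fold higher and 4.22% at least 2-fold lower. Of 27 coreceptors and heparan sulfate genes 22 were measured, with a median log2 ratio of 0.16, 2 at least 2-fold higher (1 with the deposited scaling and with scaling on the median ratio of reference genes) and 0 lower. Sdc4, a syndecan that carries heparan sulfate and assists FGF receptors, read 5410 and 15649 (1.53), but its other probe set read 4038 and 2747 (-0.56). Hs3st1, a heparan sulfate sulfotransferase, read 522 and 1064 (1.03), and was short of 2-fold with those scalings (0.95 and 0.90). Gpc3, a glypican, was the lowest by representative probe set at 8137 and 4931 (-0.72), followed by Ext1, which polymerises heparan sulfate (4383 and 2814, -0.64). Gpc4 (0.09) and Sdc3 (0.15) each had another measured probe set past 2-fold lower (1079 and 302, -1.84, and 941 and 454, -1.05). The klotho coreceptors Kl and Klb, which endocrine FGFs need, were under the floor on both arrays.

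Of the RAS-ERK relay 20 of 28 genes were measured, with a median log2 ratio of 0.11, 1 at least 2-fold higher and 1 at least 2-fold lower. Each call ended under another scaling, Gab2 with quantile normalization (0.98) and Frs3 with reference scaling (-0.81). Gab2, a docking protein, read 10249 and 22536 (1.14), with 0.51 and -0.70 in its other probe sets. Frs3, an adaptor that docks on FGF receptors, read 1315 and 603 (-1.13) by its only probe set. Rps6ka3, an ERK-activated kinase, had 0.68 and Ksr1, an ERK scaffold, -0.60, each with a probe set of the opposite sign. Beside its representative probe set, Map2k2 had a measured one past 2-fold lower (3055 and 886, -1.79). Ptpn11 likewise had a measured one past 2-fold higher (316 and 662, 1.07).

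Of 26 other ERK-responsive genes 21 were measured and 0 were past 2-fold, though 1 was with 3 of the 4 other scalings, with a median of 0.01, 11 above 0 and 10 below. Egr1, an immediate early transcription factor, was that gene and the lowest, at 7901 and 3991 (-0.99, and between -1.11 and -1.06 with those 3 scalings). Lrig1, a brake on receptor kinases, read 3126 and 1912 (-0.71) and was below 0 in all 3 probe sets, and Ier2 had -0.63. Egr3 was the highest at 1398 and 2123 (0.60). Peli1 (0.42) had another measured probe set past 2-fold lower (887 and 401, -1.15). The medians of these 3 lists stand beside 0.07 over all measured genes, and the sign of the last 2 changed with the scaling.

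**Figure D4:**
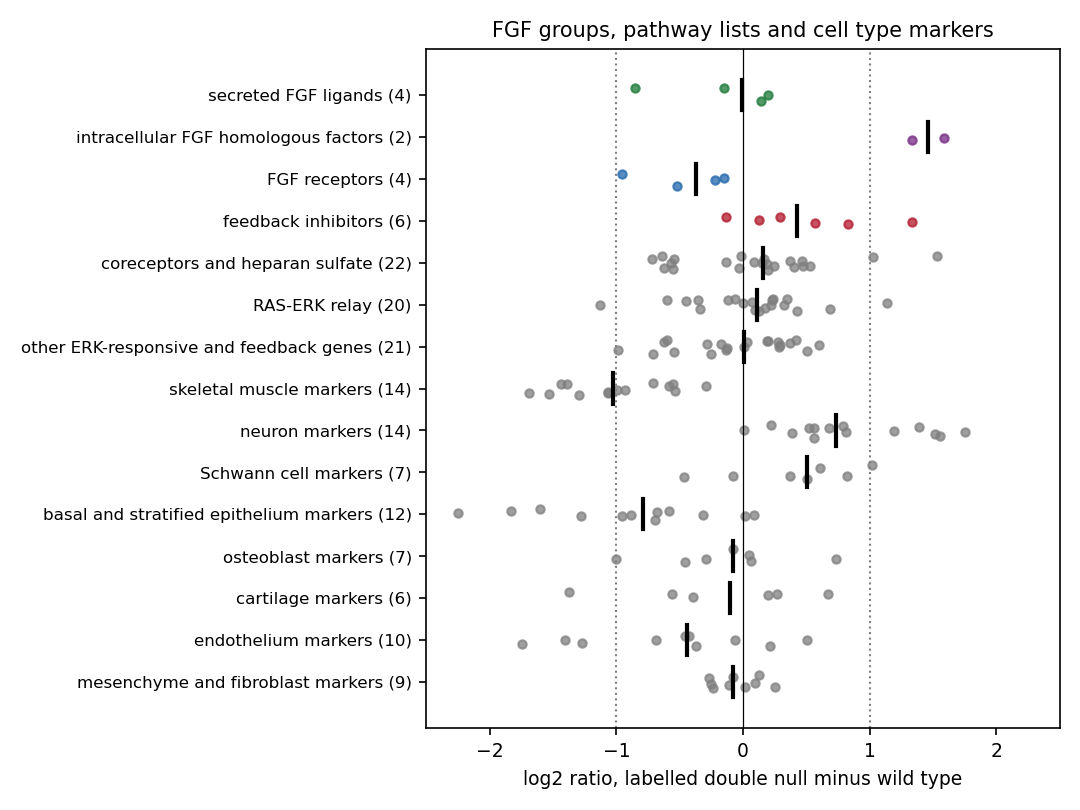
Log2 ratio, labelled double null minus wild type (horizontal axis), of each measured gene (points) in 4 groups of FGF genes, 3 pathway lists and 8 lists of cell type markers, with the number measured in parentheses, black bars at the medians and dotted lines at 2-fold. Medians run from -1.03 for skeletal muscle markers to 1.46 for the 2 intracellular FGF factors, and the pathway lists lie between 0.01 and 0.16.

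Markers of cell types that express FGF genes also differed between the arrays. Skeletal muscle markers, whose tissue expresses Fgf6 and Fgfr4, had a median log2 ratio of -1.03, with 7 of 14 at least 2-fold lower (9 as deposited and with scaling on the median ratio of reference genes, 4 with reference scaling), led by Tnnc2 (-1.69) and Des (-1.53). Epithelial markers, whose tissue expresses Fgf9, Fgfbp1 and Fgfr2, had a median of -0.79, with 10 of 12 measured below 0 (9 of 11 with reference scaling) and 4 at least 2-fold lower. Their summed signal was 148727 in wild type and 89315. Krt4 (-2.25) and Lor (-1.83) were the furthest, while Trp63, the regulator of basal cells, had 0.09, and Ivl was under the floor on both arrays.

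Osteoblast and cartilage tissues express Fgfr1 and Fgfr3. Osteoblast markers had a median of -0.08 over 7 measured genes, with Dmp1 (-1.0) and Col1a1 (0.74) the furthest, and cartilage markers a median of -0.10 over 6, with Col11a2 (-1.37) and Col2a1 (0.67), but -0.53 over 7 with scaling on the median ratio of reference genes. The signs of these medians, and of the next, changed with reference scaling. Mesenchyme markers had a median of -0.08 over 9, with 0 past 2-fold and the range -0.27 (Postn) to 0.25 (Col1a2). Endothelial markers had a median of -0.44 over 10, with Tie1 (-1.74) and Pecam1 (-1.41 or lower, under the floor on the second array) the lowest, and 8 of the 10 were below 0, with Emcn (0.51) and Tek (0.22) above. Schwann cell markers had a median of 0.51 over 7, with 5 above 0, Fabp7 (1.02) and Ngfr (0.82) the highest, and Sox10 (-0.47, and -0.50 in a second probe set) and Erbb3 (-0.08) below. That median is the value of Mbp, whose other probe sets had both signs (from -0.74 to 0.42), so no direction is given for the Schwann cell list. The part of tissue composition in the values of the FGF genes was not tested. Without the intracellular factors, the 16 remaining measured members had a median log2 ratio of -0.08, with 1 past 2-fold.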

How the data were processed

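For each array the authors deposited 1 linear intensity (a MAS5 signal) per probe set; the name MAS5 comes from the submitters' processing notes. Version, settings and genome build are not given in the sources used here. Of 45101 probe sets, 64 controls, 932 of several genes and 9160 with no gene symbol were left out, and 34945 remained. Names come from the platform annotation, and all 38 member gene identifiers were found in the RefSeq table with no symbol changed.

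Scaling matched the arrays on the median signal of probe sets in the upper part of both (from the 50th percentile), brought to the geometric mean of both medians (factors 0.974 for wild type and 1.03 for the other). Floor, level for a measured gene and log2 ratios are as given above. With 1 array a group, calls follow size (2-fold), and the number of arrays limits the precision. Members and lists were chosen with earlier results of these data known.

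All members were named, from each pathway list the genes past 2-fold or, if fewer than 4, the 4 with the largest absolute ratio, plus the furthest the other way, and from each marker list the 2 with the largest absolute ratio. Krt5, Trp63, Ivl, Osr1, Osr2, Emcn, Tek, Sox10, Erbb3, Mbp, Syp, Prph, Elavl3, Nefl and Stmn2 were added after their values were seen. So were Kl, Klb, Gpc4, Sdc3, Map2k2, Ptpn11, Peli1, Eif2s3y and Xist. Alternatives were 4 other scalings, 4 other treatments of the floor, 2 other ways to represent a gene, 3 other filters, and 1.5-fold and 3-fold rules. The steps were tested on simulated data. Python 3.11.15, numpy 2.4.6, pandas 2.3.3 and matplotlib 3.10.9 were used.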

Additional observations from a re-analysis of the deposited data

How the results depend on the processing

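The count of FGF genes at least 2-fold higher was 3 in 9 of 15 alternatives. It was 4 with scaling on the median signal of reference genes (Spry2 added) and with the 1.5-fold rule, 2 with the floor at the 60th percentile and with an offset in place of the floor (Spry4 lost), and 1 with the filter at the 75th percentile and with the 3-fold rule (Fgf13). The count at least 2-fold lower was 0, and became 1 with the deposited scaling and with scaling on the median ratio of reference genes (Fgfr1), 1 with the mean over all measured probe sets (Fgf9) and 2 with the 1.5-fold rule. The median over measured members ran from -0.08 to 0.37, the latter with scaling on the median signal of reference genes.

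Of 177 values of single measured members under 10 alternatives, 1 moved by more than the SD of 0.51 between probe sets. It was that of Fgfr1 without probe sets of suffix a, s or x (-0.25). The sign was the same throughout in 11 of 18 members, and no value of Fgf13, Fgf12 or Spry4 changed sign. Each of these genes had a single measured probe set, so the alternatives reworked the same readings and could hardly change the sign. Fgf12 and Spry4 also passed the filter only through the array where they were high. The second Spry4 probe set (-0.08) did not enter these values.

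The share of all measured genes past 2-fold was 12.2% with scaling on the median signal of reference genes, 4.63% with the floor at the 60th percentile, 4.11% with the offset, 25.0% with the 1.5-fold rule and 1.66% with the 3-fold rule. These settings for all genes, and the other scalings for the pathway and marker lists, were added after the data were seen. Lower genes made up 54.6% of those past 2-fold, against 65.0% as deposited, 16.7% after scaling to the median signal and 72.2% to the median ratio of reference genes. The cause of these shifts was not tested. Signals near the floor limit the 20 members that were not measured.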
